A study of Homo sapiens with 11 samples.

Results

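PANC-1, a cell line derived from a pancreatic ductal adenocarcinoma, was represented by 1 small RNA library among the 11 libraries of the series, and its miRNA levels were set against the other cell lines that had been prepared with the same kit. These were A-549, from a lung carcinoma, ES-2, from an ovarian clear cell carcinoma, and MV3, from a melanoma, with 2 libraries each, so that 1 library stood against 6. The labels spell the lines PANC1, A549, ES2 and MV3. All 4 were parental cells that carried no siRNA, were grown in DMEM with serum and were collected 48 h after seeding. All 7 libraries were made with a NEXTflex small RNA kit and were sequenced on the same platform. The series also held libraries of BE(2)-C (neuroblastoma), collected earlier than 48 h after seeding, and Hep-G2 (liver), which came from another provider and sequencer. Their values are given only side by side. Preparation, sequencing, the cell line and, for BE(2)-C, the time of collection differ together there and cannot be told apart. The study's methods call the replicates biological, but PANC-1 had no replicate, so none of its values has an error of its own. The libraries came from whole cultures, in which fewer expressing cells and less RNA per cell cannot be told apart. The levels are CPM, that is reads of a mature miRNA per 1000000 reads assigned to all listed miRNAs, summed over the genomic copies of that miRNA. Of 2588 mature miRNAs in the tables, 1181 had a read in at least 1 of the 7 libraries, and 453 were compared, namely those averaging 10 CPM or more in PANC-1 or any of the 3 other lines. Of these 453, 52 passed the level filter only through PANC-1 and 401 through another line as well or instead. The miRNAs in the former group had to be higher in PANC-1, and counts of higher miRNAs are therefore also given among the 401 others. In PANC-1 itself 358 of the 453 had 10 CPM or more. The rest passed only through another line and had to be lower than in at least 1 such line. Counts of lower miRNAs include them.

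MiRNAs are cut from hairpin precursors. One strand of the hairpin, from its 5p or its 3p arm, is usually retained by an Argonaute protein, and bases 2 to 8 of that strand, the seed, select the mRNAs to be repressed. Many hairpins lie close together on 1 primary transcript or in the intron of a protein-coding gene, and members of such clusters are often expressed together. The level of a mature miRNA therefore reflects the transcription of its host as well as its processing and decay. In the pancreas, acinar cells are known for miR-216a, miR-216b and miR-217, and islet cells for miR-375 and miR-7. Cancer cell lines differ widely in imprinted, HOX-embedded and lineage-restricted miRNAs, which are the groups described here.

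The mature sequences of the miRNAs on which the results turn are given first, from RefSeq (GRCh38.p14), 5′ to 3′ with the seed in capitals. Names of 412 of the 453 compared miRNAs matched an entry. The first pair, known for striated muscle, was the one that set PANC-1 farthest apart:
miR-1-3p: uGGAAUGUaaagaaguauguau
miR-133a-3p: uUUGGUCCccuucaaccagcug

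The second group lies within HOX gene clusters. It includes miR-10a-5p, the most abundant of the miRNAs far above the other lines:
miR-10a-5p: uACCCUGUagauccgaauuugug
miR-10a-3p: cAAAUUCGuaucuaggggaaua
miR-196a-5p: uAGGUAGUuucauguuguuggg
miR-615-3p: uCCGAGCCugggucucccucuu

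The third group comes from the imprinted region of chromosome 14. It was read in PANC-1 and A-549 and was nearly absent from ES-2 and MV3:
miR-493-5p: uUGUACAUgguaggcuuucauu
miR-431-5p: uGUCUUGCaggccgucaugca
miR-127-3p: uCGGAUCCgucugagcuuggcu
miR-337-3p: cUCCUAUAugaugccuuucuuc
miR-432-5p: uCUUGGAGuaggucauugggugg
miR-379-5p: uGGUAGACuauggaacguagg

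The fourth group holds let-7 family members that share the seed GAGGUAG but differed from the other lines in opposite directions:
let-7f-5p: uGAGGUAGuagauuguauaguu
miR-98-5p: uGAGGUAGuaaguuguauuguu
let-7i-5p: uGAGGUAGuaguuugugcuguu

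The last group was low in PANC-1, except miR-100-5p, which is shown because it has the seed ACCCGUA in common with miR-99a-5p:
miR-99a-5p: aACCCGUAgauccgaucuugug
miR-100-5p: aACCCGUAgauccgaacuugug
miR-138-5p: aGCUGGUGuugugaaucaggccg
miR-135b-5p: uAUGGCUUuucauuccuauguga
miR-582-3p: uAACUGGUugaacaacugaacc
miR-18a-5p: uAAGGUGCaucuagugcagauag
miR-503-5p: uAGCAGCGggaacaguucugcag
miR-224-5p: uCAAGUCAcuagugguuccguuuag

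The PANC-1 library was the deepest of the 7, with 9746838 assigned reads against 1173902 to 2670030 in the others, so that 3 reads amounted to 0.308 CPM in PANC-1 and to between 1.12 and 2.56 CPM elsewhere. Despite this depth only 50 miRNAs had 1 to 3 reads in PANC-1, whereas 159 to 211 had so few in each of the other libraries, and the number of miRNAs with any read was 642 against 608 to 724. Whether this difference in rare species bears on the miRNAs listed at 0 in PANC-1 was not tested. Counting error alone is covered by all intervals and limits given here. MiR-21-5p took 33.5% of the PANC-1 reads (95% Wilson interval 33.5% to 33.6%), about as in MV3 (33.2% and 32.1%) and above ES-2 (28.2% and 27.0%), whereas it took 65.0% and 64.2% in A-549. The effective number of miRNAs (the exponential of the Shannon entropy) was 23.6 in PANC-1, 22.1 and 23.0 in MV3, 20.0 and 20.4 in ES-2 and 7.53 and 7.69 in A-549. PANC-1 had 186 miRNAs with at least 100 CPM, against 154, 141 and 158 in the line means of A-549, ES-2 and MV3.

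The pancreatic label was set against markers of the acinar and islet cells of the organ. No marker of duct cells was listed, so the ductal origin of the line was not examined. The acinar miRNAs miR-216a-5p, miR-216b-5p and miR-217 had 0 reads in PANC-1, which allows up to 0.308 CPM each. In the other lines miR-216b-5p and miR-217 reached at most 4.81 and 3.37 CPM. Islet-type miR-375 had 26.8 CPM in PANC-1, 37.1 and 46.1 CPM in A-549, 3.61 and 73.6 CPM in ES-2 and 14.5 and 2.58 CPM in MV3, within the range of the other libraries. MiR-7-5p, also frequent in endocrine cells, had 1274 CPM in PANC-1, 1079.8 and 1314 CPM in A-549, 2971 and 2718 CPM in ES-2 and 3730.3 and 4530.5 CPM in MV3, which was below both ES-2 and both MV3 libraries. None of these pancreatic markers was higher in PANC-1 than in all 3 lines. MiR-148a-3p, also listed for the pancreas, had 24.1 CPM in PANC-1, within the range of the other libraries. Of the epithelial markers, miR-200b-3p had 93.2 CPM in PANC-1, 794 and 833 CPM in A-549, 7.82 and 5.66 CPM in ES-2 and 14.5 and 25.2 CPM in MV3. PANC-1 lay below A-549 (log2 difference -3.11, adjusted p 0.00303, limma) and above ES-2 and MV3 (adjusted p 0.00135 and 0.00764, limma). Its cluster partners miR-200a-3p and miR-429 had 0.103 and 4.41 CPM in PANC-1 against 71.9 and 80.6 CPM and 76.8 and 49.0 CPM in A-549. MiR-200c-3p was at 31.9 CPM and miR-141-3p at 3.49 CPM. MiR-203a-3p, a keratinocyte miRNA, had 12.9 CPM in PANC-1, 0.374 and 3.40 CPM in A-549, 3.61 and 5.66 CPM in ES-2 and 0 and 1.29 CPM in MV3, above all other libraries, but passed the filter only through PANC-1 and thus had to be higher there. Of the mesenchymal markers, miR-199a-5p, miR-214-3p, miR-145-5p and miR-145-3p had 3, 0, 0 and 0 reads in PANC-1, whereas miR-143-3p had 29.8 CPM, miR-199a-3p 14.4 CPM and miR-199b-5p 7.49 CPM. MiR-199b-5p was higher than in A-549 and MV3 (adjusted p 0.00206 and 0.00178, limma) and lower than in ES-2. Blood cell markers were at or near 0, with 1 read of miR-142-3p, 7 of miR-150-5p and none of miR-223-3p and miR-451a. Neuronal miR-124-3p and melanocytic miR-211-5p were listed at 0, and hepatocyte miR-122-5p had 35.3 CPM in PANC-1, 4.49 and 1.94 CPM in A-549, 3.61 and 24.8 CPM in ES-2 and 45.1 and 30.98 CPM in MV3.

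For the comparison of each line with PANC-1, limma was fitted to log2(CPM + 1) of the 7 libraries, and its p-values assume that the single PANC-1 library varies as much as the replicates of the other lines do. Against A-549, 188 of the 453 miRNAs were higher (41.5%) and 72 lower (15.9%) in PANC-1 at an adjusted p under 0.05 (limma). Against ES-2, 185 were higher (40.8%) and 116 lower (25.6%). Against MV3, 143 were higher (31.6%) and 138 lower (30.5%). The 3 comparisons share the PANC-1 library. Against all 3 lines at once, 91 miRNAs were higher (20.1%) and 34 lower (7.51%). Among the 401 miRNAs that passed the filter through another line, 151, 148 and 112 were higher than in A-549, ES-2 and MV3 (37.7%, 36.9% and 27.9%) and 64 were higher against all 3 (16.0%), while the numbers of lower miRNAs were the same. These splits depended on the scaling of the libraries. The median log2 difference of all 453 miRNAs was 0.84 against A-549, 0.55 against ES-2 and 0.08 against MV3 on CPM, and 0.00, 0.12 and 0.04 after TMM factors (trimmed mean of M-values) over the 7 libraries. Accordingly, 72.3% of the calls against A-549 were higher in PANC-1 on CPM but 41.0% with TMM, and 43 instead of 91 miRNAs were higher against all 3 lines, all of them among the 91. Lower against all 3 were 62 instead of 34, with 33 in common. Distances from every other library are therefore given as well, with the scaling named where it matters.

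**Figure D1:**
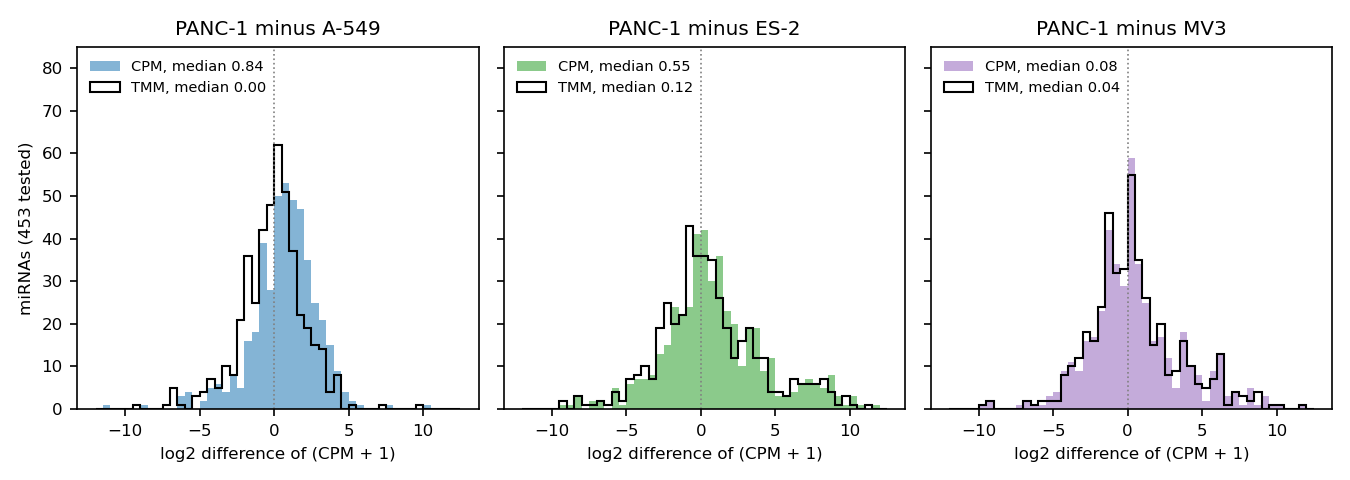
Histograms of the log2 difference of (CPM + 1) between PANC-1 and the mean of A-549, ES-2 or MV3 (x axis) for the 453 compared miRNAs (y axis: number of miRNAs), on CPM (filled) and with TMM factors (black outline). The median against A-549 moves from 0.84 to 0.00 between the scalings, and the right-hand shoulders against ES-2 and MV3 reach beyond 5.

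To describe how far PANC-1 stood apart without a test, its level was compared with the nearest of the 6 other libraries. It lay above all 6 for 178 miRNAs (39.3%), below all 6 for 73 (16.1%) and within their range for 202. Of the 178, 127 were among the 401 others (31.7%). At least 4-fold above all 6 (2 on the log2(CPM + 1) scale) were 47 miRNAs (10.4%). Of these, 22 had passed the filter only through PANC-1, and the remaining 25 made up 6.23% of the 401 others. At least 4-fold below all 6 were 9 miRNAs (1.99%). With TMM factors the 47 became 21, all among the 47, but each of the 47 was still above all 6 libraries. The 9 became 13 and included the same 9. The limma test gives no separate support for the 47 and the 9, since they were picked by their distance in the same values. When every line was represented by its mean and the rule applied to each in turn, PANC-1 had 57 miRNAs 4-fold above the other 3 lines, against 12 for A-549, 13 for ES-2 and 15 for MV3, and 10 below them, against 8, 23 and 1. Without the miRNAs that passed the filter only through the line in question, of which PANC-1 had 52 and the others 10, 14 and 26, the numbers above were 29 for PANC-1, 6 for A-549, 0 for ES-2 and 7 for MV3. PANC-1 entered with 1 library and the other lines with means of 2, and the part of this in the contrast was not tested.

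**Figure D2:**
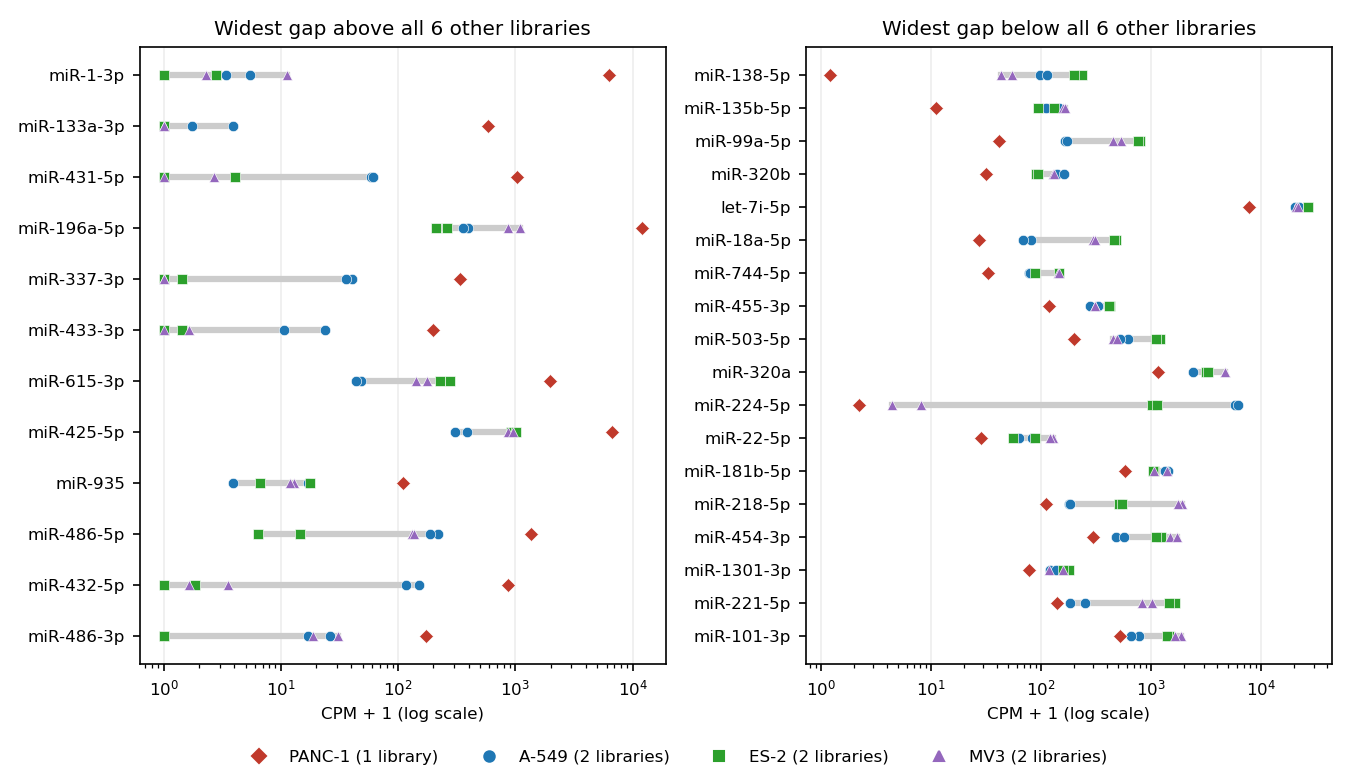
CPM + 1 (x axis, log scale) in every library for the 12 miRNAs with the widest gap above the other 6 libraries among those with at least 100 CPM in PANC-1 (left) and 18 of those with the widest gap below them and a mean of at least 100 CPM in another line (right). Each point is 1 library and grey bars span the other 6 libraries, and the PANC-1 diamond lies outside every bar, with the widest distances for miR-1-3p (6273 against at most 10.2 CPM) and miR-138-5p (0.205 against at least 42.6 CPM).

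MiR-1-3p and miR-133a-3p, which act in skeletal and cardiac muscle differentiation, were the miRNAs farthest above the other lines. MiR-1-3p had 6273 CPM in PANC-1, 4.49 and 2.43 CPM in A-549, 1.80 and 0 CPM in ES-2 and 10.2 and 1.29 CPM in MV3. PANC-1 thus held 614 times the level of the highest other library, MV3 replicate 1. Its log2 differences were 10.50 ± 1.18 against A-549, 11.87 ± 1.18 against ES-2 and 10.27 ± 1.18 against MV3 (SE). No p is given for miR-1-3p and miR-133a-3p, since both passed the filter only through PANC-1 and thus had to be higher there. MiR-133a-3p had 584 CPM in PANC-1, 0.749 and 2.91 CPM in A-549, 0 and 0 CPM in ES-2 and 0 and 0 CPM in MV3, which was 201 times the highest other library. It was read in A-549 but in no library of ES-2 or MV3, and its log2 difference against A-549 was 7.81 ± 0.50 (SE). Both mature forms have a pair of identical sources. MIR1-2 and MIR133A1 lie on the minus strand of chromosome 18 at 21829004 to 21829088 and 21825698 to 21825785 (GRCh38), in exons of the non-coding gene MIR133A1HG. MIR1-1 and MIR133A2 lie on chromosome 20 at 62554306 to 62554376 and 62564912 to 62565013, within MIR1-1HG. The mature reads do not tell which pair was the source. The related miR-206, with the same seed as miR-1-3p, had 0 reads in PANC-1, and miR-133b had 2. The third muscle-associated miRNA compared, miR-486-5p, had 1356 CPM in PANC-1, 218 and 186 CPM in A-549, 5.41 and 13.5 CPM in ES-2 and 131 and 136 CPM in MV3, and its opposite arm miR-486-3p had 171 CPM in PANC-1, 25.1 and 16.01 CPM in A-549, 0 and 0 CPM in ES-2 and 17.9 and 29.7 CPM in MV3. MiR-486-5p is also abundant in erythroid cells, whose miR-451a and miR-144-3p had 0 reads in PANC-1. Both arms were over 4-fold above every other library, although with TMM factors the distances were 1.71 and 1.81 on the log2 scale and miR-486-5p did not pass against A-549 (adjusted p 0.0623, limma). Of the 8 muscle miRNAs on the list 3 were abundant enough to be compared, and miR-486-5p was the 1 that passed the filter through another line as well. MiR-208a-3p and miR-208b-3p were listed at 0 and miR-499a-5p had 0.410 CPM. In the other preparation miR-1-3p had 287 and 219 CPM in BE(2)-C and 122 and 100.1 CPM in Hep-G2.

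The HOX gene clusters encode several miRNAs in their introns and intergenic stretches, which are expressed according to position along the body axis. MiR-10a-5p was the third most abundant miRNA of PANC-1. It had 56313 CPM in PANC-1, 3352 and 3584 CPM in A-549, 10271 and 10396 CPM in ES-2 and 2447 and 2376 CPM in MV3. PANC-1 was 5.42 times above the highest other library, ES-2 replicate 2, and 23.7 times above the lowest. The replicates of each line differed little, and the log2 differences were 4.02 ± 0.06, 2.45 ± 0.06 and 4.55 ± 0.06 (SE) against A-549, ES-2 and MV3, with adjusted p-values of 8.56e-06, 2.22e-05 and 8.56e-06 (limma). The opposite arm, miR-10a-3p, had 455 CPM in PANC-1, 21.3 and 18.4 CPM in A-549, 72.8 and 81.05 CPM in ES-2 and 34.9 and 36.8 CPM in MV3, so that ES-2 was next to PANC-1 for both arms. MIR10A lies on the minus strand of chromosome 17 at 48579838 to 48579947, in an intron of HOXB3. MiR-196a-5p, which represses HOX mRNAs, had 11978 CPM in PANC-1, 393 and 360.1 CPM in A-549, 209 and 263 CPM in ES-2 and 869 and 1088 CPM in MV3. Its PANC-1 level was 11.01 times that of the highest other library (MV3 replicate 2), and the difference against MV3 was 3.62 ± 0.20 on the log2 scale (SE, adjusted p 0.000235, limma). MiR-196a-5p has a copy on chromosome 17 (48632490 to 48632559, intron of HOXB7) and one on chromosome 12 (53991738 to 53991847, intron of HOXC6). MiR-615-3p, from an intron of HOXC5 on chromosome 12 (54033950 to 54034045), had 1965 CPM in PANC-1, 47.6 and 43.2 CPM in A-549, 275 and 227 CPM in ES-2 and 141 and 175 CPM in MV3, 7.15 times the highest other library. The remaining members of this list did not share the pattern. MiR-10b-5p, from the HOXD cluster, had 1853 CPM in PANC-1, 656 and 736 CPM in A-549, 2531 and 2593 CPM in ES-2 and 2767 and 2886 CPM in MV3, between A-549 and the other lines. MiR-196b-5p, from the HOXA cluster, had 33.04 CPM in PANC-1, 161 and 253 CPM in A-549, 185 and 165 CPM in ES-2 and 9.37 and 14.8 CPM in MV3 and was lower than A-549 and ES-2. Of the 5 HOX miRNAs, 3 were 4-fold above all other libraries on CPM, against 10.4% of all compared miRNAs. All 5 had passed the filter through another line, and among the 401 such miRNAs the share was 6.23%. With TMM factors miR-10a-5p lay 1.90 above the nearest library on the log2 scale, short of 4-fold, and miR-615-3p 2.48.

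A pair of large clusters on chromosome 14 is transcribed from the maternal chromosome together with MEG3 and related non-coding RNAs. The first runs from MIR493 to MIR136 (chromosome 14, 100869060 to 100884783, plus strand) and lies in part antisense to RTL1. The second runs from MIR379 to MIR656 (101022066 to 101066801, plus strand), partly in introns of MEG8 and MEG9. Of the former, 11 mature miRNAs were compared and 10 were above all 6 other libraries (39.3% of all miRNAs were), 9 of them at least 4-fold (10.4%). Of the latter, 42 were compared, 41 were above all 6 and 9 at least 4-fold. Both clusters together therefore gave 18 of the 47 miRNAs set apart upwards on CPM. With TMM factors the 47 became 21, and some cluster members, among them miR-493-5p and miR-127-3p, were no longer 4-fold above. The number of cluster members among the 21 is not given. Without the members that had passed the filter only through PANC-1, 8 of 9 miRNAs of the first cluster and 34 of 35 of the second were above all 6 libraries (31.7% of the 401 others were), and 7 and 4 were at least 4-fold above them (6.23%). With TMM factors 10 of 11 and 31 of 42 compared members were still above all 6 libraries. The compared miRNAs of the first cluster summed to 9729 CPM in PANC-1, 1592 and 1694 CPM in A-549, 0 and 13.5 CPM in ES-2 and 3.41 and 1.94 CPM in MV3 and those of the second to 21191 CPM in PANC-1, 6753 and 6517 CPM in A-549, 6.61 and 61 CPM in ES-2 and 296 and 293 CPM in MV3. A-549 was the next line for 10 of 11 and 40 of 42 miRNAs, and ES-2 replicate 1 held 0 reads for the whole first cluster.

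Within the first cluster miR-493-5p was the most abundant in PANC-1, with 5786 CPM in PANC-1, 957 and 1055 CPM in A-549, 0 and 7.41 CPM in ES-2 and 0 and 1.29 CPM in MV3, and lay 5.48 times above A-549 replicate 2. MiR-127-3p, whose hairpin is antisense to RTL1, had 1608 CPM in PANC-1, 349 and 369.8 CPM in A-549, 0 and 1.31 CPM in ES-2 and 1.70 and 0 CPM in MV3. MiR-431-5p, another RTL1 antisense miRNA, showed the widest distance from A-549 in this region. It had 1024 CPM in PANC-1, 57.7 and 59.7 CPM in A-549, 0 and 3.05 CPM in ES-2 and 1.70 and 0 CPM in MV3, and its opposite arm miR-431-3p had 19.6 CPM in PANC-1 and at most 1.12 CPM elsewhere. MiR-337-3p had 337 CPM in PANC-1, 39.3 and 34.9 CPM in A-549, 0 and 0.436 CPM in ES-2 and 0 and 0 CPM in MV3, and miR-433-3p had 198 CPM in PANC-1, 9.74 and 22.8 CPM in A-549, 0 and 0.436 CPM in ES-2 and 0 and 0.645 CPM in MV3. MiR-432-5p, from the same region, had 865 CPM in PANC-1, 117 and 149 CPM in A-549, 0 and 0.872 CPM in ES-2 and 2.56 and 0.645 CPM in MV3. Each of these was above every other library, with A-549 next and ES-2 and MV3 at or near 0. MiR-136-5p, with 10.6 CPM in PANC-1, was the one exception among the 11 compared, since A-549 replicate 2 had 14.1 CPM. In the second cluster miR-379-5p had 2130.2 CPM in PANC-1, 536 and 557 CPM in A-549, 0 and 2.18 CPM in ES-2 and 17.04 and 33.6 CPM in MV3 and miR-411-5p had 774 CPM in PANC-1, 166 and 159 CPM in A-549, 0 and 1.74 CPM in ES-2 and 2.56 and 3.23 CPM in MV3, whereas miR-376c-3p was close to A-549 with 153 CPM in PANC-1, 126 and 104 CPM in A-549, 0 and 0 CPM in ES-2 and 1.70 and 2.58 CPM in MV3. The excess over A-549 thus differed between members, for instance 4.10 for miR-431-5p and 0.41 for miR-376c-3p on the log2 scale. The median excess over A-549 was 2.52 in the first and 1.56 in the second cluster, against 0.84 for all compared miRNAs.

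In the limma fit all 11 members of the first cluster and 41 of 42 of the second were higher than in ES-2 and than in MV3. Against A-549 this was the case for 8 of 11 and 17 of 42, and none was lower. Among members that passed the filter through another line, 9 of 9 and 34 of 35 were higher than in ES-2 and in MV3, and 6 of 9 and 11 of 35 were higher than in A-549. Over all 453 miRNAs the shares higher than in A-549, ES-2 and MV3 were 41.5%, 40.8% and 31.6%, and over the 401 others 37.7%, 36.9% and 27.9%. Against A-549 the second cluster did not exceed these shares in the limma fit, nor did the list of the region given below, whereas the first cluster did. With edgeR more members of the second cluster were called higher than in A-549, so for that cluster this comparison of shares holds for limma alone. The fit holds 1 residual spread per miRNA for all lines, also those in which these miRNAs were nearly absent. For miR-493-5p, A-549 had 957 and 1055 CPM but ES-2 0 and 7.41 CPM, and the difference of 2.52 against A-549 did not pass (SE 1.35, adjusted p 0.172, limma). With edgeR on the recovered reads, which weights low counts differently and was run with TMM factors, the log2 difference of the same comparison was 1.81. This value, too, rests on the single PANC-1 library. Of the 12 members of the region on the list for it, 12, 12 and 3 were higher than in ES-2, MV3 and A-549, and 5 were at least 4-fold above all 6 libraries. With TMM factors miR-381-3p, miR-134-5p and miR-376c-3p turned to slightly lower values than in A-549 (-0.47, -0.27 and -0.52), none past the threshold on either scale. In the other preparation BE(2)-C had 70105 and 59481 CPM of miR-127-3p and Hep-G2 6.90 and 6.51 CPM.

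**Figure D3:**
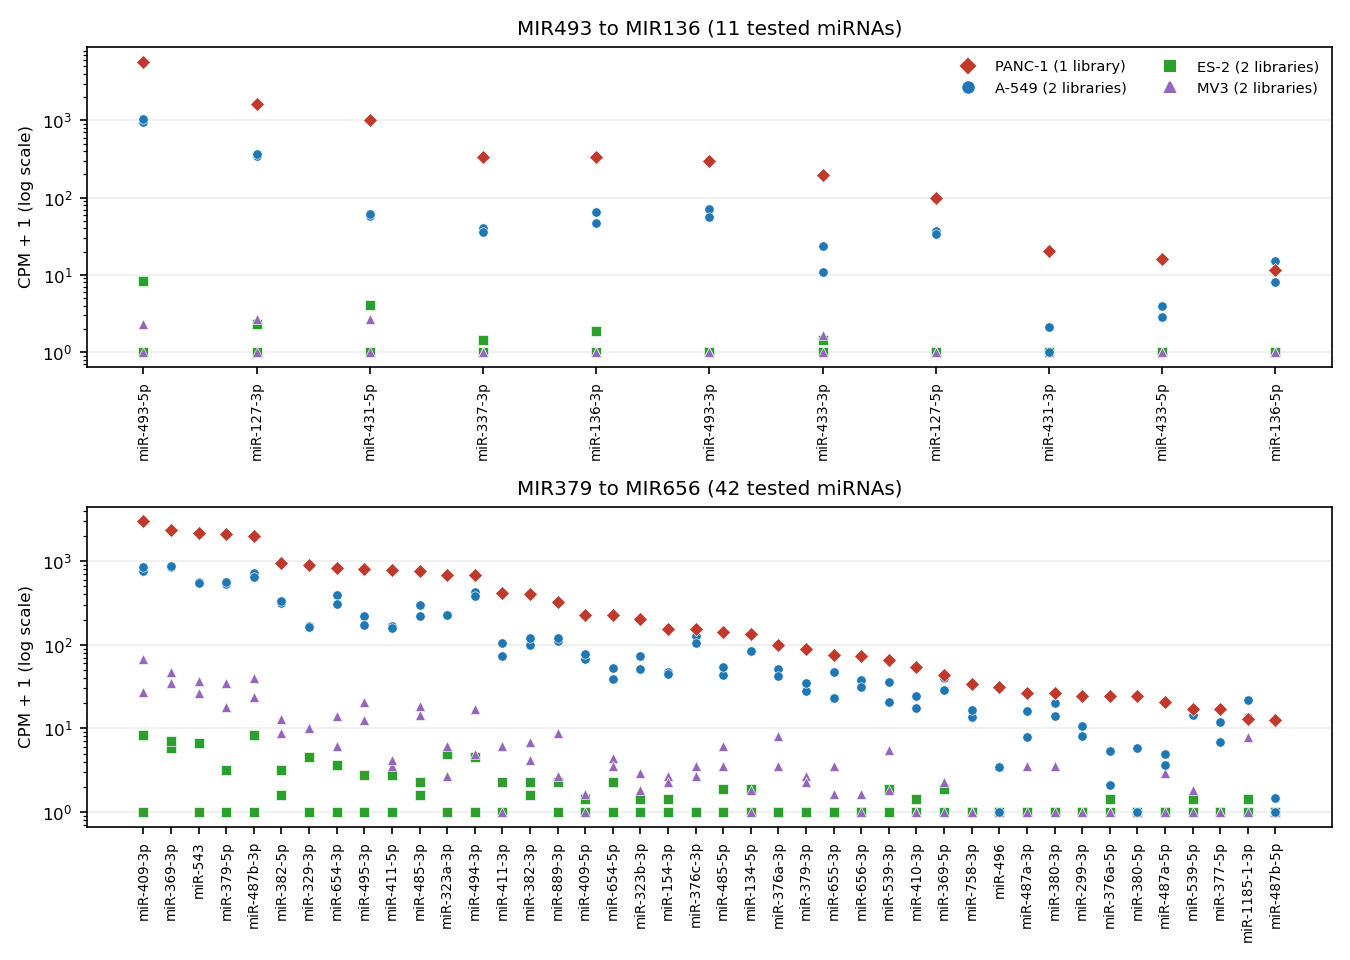
CPM + 1 (y axis, log scale) in every library for the compared miRNAs of both chromosome 14 clusters, ordered along the x axis by their level in PANC-1. Each point is 1 library, PANC-1 lies highest for 10 of 11 and 41 of 42 miRNAs, A-549 mostly follows, and ES-2 and MV3 lie lower.

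Further groups were above all other libraries. On the X chromosome a cluster from MIR532 to MIR502 (50003148 to 50014683, plus strand) begins in an intron of CLCN5. All 8 compared members were above the other 6 libraries (39.3% of all miRNAs were), 4 of them at least 4-fold (10.4%), and 8 of 8 were above them with TMM factors. Of the 4 that passed the filter through another line, 4 were above all 6 (31.7% of the 401 others were) and 1 at least 4-fold (6.23%). MiR-532-5p led with 858 CPM in PANC-1, 104 and 116 CPM in A-549, 81.2 and 92.8 CPM in ES-2 and 163 and 143 CPM in MV3. The sum of its members was 1502 CPM in PANC-1, 229.6 and 275 CPM in A-549, 215 and 214 CPM in ES-2 and 377 and 332 CPM in MV3. MiR-425-5p had 6679.5 CPM in PANC-1, 385 and 305 CPM in A-549, 912 and 1015 CPM in ES-2 and 869.7 and 945 CPM in MV3, 6.58 times the highest other library, with log2 differences between 2.79 and 4.28 and adjusted p-values of 7.92e-05, 0.000186 and 0.000256 against A-549, ES-2 and MV3 (limma). The hairpin lies in an intron of DALRD3 on chromosome 3, and its neighbour miR-191-5p (cluster at 49020148 to 49020709) had 10598 CPM in PANC-1, 1268 and 1051 CPM in A-549, 2368 and 2461 CPM in ES-2 and 3147 and 2988 CPM in MV3. MiR-335-5p, from an intron of the imprinted gene MEST on chromosome 7, had 734 CPM in PANC-1, 148 and 173 CPM in A-549, 3.01 and 2.18 CPM in ES-2 and 1.70 and 0 CPM in MV3, again with A-549 as the next line.

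Neuronal miRNAs differed in both directions. MiR-9-5p, abundant in neural progenitors, had 1739 CPM in PANC-1, 209 and 453 CPM in A-549, 216 and 301 CPM in ES-2 and 124 and 52.9 CPM in MV3, and miR-9-3p had 464 CPM in PANC-1, 62.9 and 88.3 CPM in A-549, 41.5 and 56.6 CPM in ES-2 and 35.8 and 23.9 CPM in MV3, so both arms were above all other libraries. MiR-128-3p had 2938 CPM in PANC-1, 755 and 689 CPM in A-549, 1649.8 and 1677 CPM in ES-2 and 2519 and 2340.4 CPM in MV3 and was also higher against all 3 lines, by 0.27 against MV3 (adjusted p 0.0434, limma). MiR-138-5p went the other way. MiR-137 was not read in PANC-1 against 23.6 and 26.2 CPM in A-549, 0 and 3.49 CPM in ES-2 and 58.8 and 85.8 CPM in MV3. It passed the filter only through A-549 and MV3 and thus had to be lower than there. Against ES-2 its log2 difference was -1.08 and did not pass. MiR-935 had 110.2 CPM in PANC-1, 16.1 and 2.91 CPM in A-549, 16.8 and 5.66 CPM in ES-2 and 11.9 and 10.97 CPM in MV3. It was 6.55 times above the highest other library, but the replicates of A-549 and of ES-2 were far apart, and the difference against MV3 did not pass (adjusted p 0.0573, limma).

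A few low-abundance miRNAs had reads in PANC-1 and none in the other 6 libraries. These were miR-1270 with 45.3 CPM, miR-187-5p and miR-187-3p with 21.6 and 20.01 CPM, miR-1247-3p with 14.8 CPM, miR-675-5p with 14.4 CPM and miR-363-3p with 11.7 CPM. Measured against the 3 reads that the shallowest other library could have missed, miR-1270 was at least 17.7-fold, miR-187-5p at least 8.47-fold and miR-363-3p at least 4.58-fold higher. MiR-675-5p is cut from an exon of the imprinted non-coding RNA H19 on chromosome 11, and miR-1247-3p from DIO3OS at the end of the imprinted region of chromosome 14. The zero spread among the other libraries makes limma p-values meaningless for these 6, and none is given. They were named after their values had been seen.

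MiR-138-5p, frequent in the brain, was the miRNA farthest below the other lines. It had 0.205 CPM in PANC-1, 96.6 and 114 CPM in A-549, 235 and 199 CPM in ES-2 and 42.6 and 53.6 CPM in MV3. In PANC-1 this amounted to 2 reads, whereas MV3 replicate 1, the shallowest library and the lowest of the others, held 50 reads. The fitted log2 differences were -6.46, -7.49 and -5.34 against A-549, ES-2 and MV3, and their size depends on the pseudocount. No p is given, since miR-138-5p passed the filter only through the other lines. The mature form has copies on chromosome 3 (44114212 to 44114310) and chromosome 16 (56858518 to 56858601), neither in an annotated gene. The passenger strand of the former, miR-138-1-3p, had 0 reads in PANC-1 and 3.75 to 25.7 CPM elsewhere, which makes it at least 12.2-fold lower than in the lowest other library. MiR-135b-5p, from an intron of LEMD1 on chromosome 1, had 10.1 CPM in PANC-1, 144 and 111 CPM in A-549, 131 and 93.7 CPM in ES-2 and 158 and 166 CPM in MV3, and PANC-1 was 9.32 times below the lowest other library. Both arms of miR-582, from an intron of PDE4D on chromosome 5, were nearly absent. MiR-582-3p had 1 read in PANC-1 and between 8.39 and 84.3 CPM elsewhere, and miR-582-5p had 0 reads against 3.87 to 69.9 CPM, at least 12.6-fold lower. MiR-1294 and miR-628-5p, with 0 reads, and miR-7-1-3p and miR-2682-5p, with 3 and 1, completed the 9 miRNAs that were 4-fold below all others. Only miR-135b-5p of the 9 reached 10 CPM in PANC-1. The others passed the filter only through another line and had to be lower than in at least 1 line. With a pseudocount of 5 in place of 1 only 2 of the 9 kept this distance.

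Among abundant miRNAs the distances below the other lines were smaller. Let-7i-5p had 7809 CPM in PANC-1, 20500.5 and 22268 CPM in A-549, 26746 and 26554 CPM in ES-2 and 20699 and 21699.8 CPM in MV3, and PANC-1 was 2.63 times below the lowest of them. Its log2 differences were -1.45 ± 0.07, -1.77 ± 0.07 and -1.44 ± 0.07 (SE), with adjusted p-values of 0.000152, 7.5e-05 and 0.000183 (limma). Let-7f-5p, with the same seed, was above all 6 with 42634 CPM in PANC-1, 16318 and 19298 CPM in A-549, 21271 and 21895 CPM in ES-2 and 16719.5 and 18192 CPM in MV3. MiR-98-5p, from the HUWE1 intron that also holds a let-7f copy, was above them with 5595 CPM in PANC-1, 1166 and 1312 CPM in A-549, 1504 and 1461 CPM in ES-2 and 940.5 and 999.8 CPM in MV3, 3.72 times the highest. Both kept these directions against each line with TMM factors. Let-7b-5p, with 15550.3 CPM in PANC-1, 6564 and 8409 CPM in A-549, 7830.2 and 9427 CPM in ES-2 and 5268 and 5903 CPM in MV3, was the third member of the family of 9 that was higher against all 3 lines, and let-7i-5p was the one lower against all 3. The log2 difference of let-7b-5p against A-549 fell from 1.07 on CPM to 0.12 with TMM factors. Let-7c-5p was below the other libraries as well, with 421 CPM in PANC-1, 499 and 675 CPM in A-549, 1678 and 1738 CPM in ES-2 and 1008 and 1062 CPM in MV3, but did not pass against A-549 (adjusted p 0.0907, limma). As the seed is the same in all of them, the summed seed family had 212989 CPM in PANC-1, close to the 211786 CPM of ES-2 replicate 2.

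Let-7c shares its host, MIR99AHG on chromosome 21, with miR-99a. MiR-99a-5p had 40.9 CPM in PANC-1, 163 and 170.3 CPM in A-549, 799 and 762 CPM in ES-2 and 532 and 451 CPM in MV3, and the difference was -1.997 against A-549, -4.22 against ES-2 and -3.55 against MV3 (adjusted p 0.000387, 3.92e-05 and 9.51e-05, limma). MiR-100-5p, which has the same seed and a host on chromosome 11, had 34818 CPM in PANC-1, 9069.6 and 8668 CPM in A-549, 111540.0 and 110750.0 CPM in ES-2 and 75284 and 64566 CPM in MV3 and was among the 10 most abundant miRNAs of PANC-1. The summed level of this seed was thus carried by miR-100-5p, and PANC-1 lay between A-549 and the other lines.

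The MIR17 to MIR92A1 cluster on chromosome 13, a transcriptional target of MYC, was below ES-2 for 10 of 10 compared members (25.6% of all miRNAs were lower there) and below MV3 for 9 of 10 (30.5%), but below A-549 for 3 of 10 (15.9%). MiR-18a-5p was below all 6 with 26.4 CPM in PANC-1, 80.9 and 66.97 CPM in A-549, 476 and 456 CPM in ES-2 and 295 and 310.5 CPM in MV3. For miR-17-5p the levels were 207 CPM in PANC-1, 172 and 148 CPM in A-549, 1011 and 915 CPM in ES-2 and 704 and 776 CPM in MV3, with log2 differences of 0.38 against A-549 (-0.56 with TMM factors, so that the sign turned), -2.21 against ES-2 and -1.83 against MV3. The paralogous miR-25-3p of the MCM7 intron was higher than in all 3 lines instead, with 4071 CPM in PANC-1, 2043 and 1934 CPM in A-549, 2649 and 2589 CPM in ES-2 and 3009.6 and 2728 CPM in MV3, although with TMM factors the difference was 0.09 against A-549 and did not pass. MiR-363-3p, from the X-linked paralog, was among those read only in PANC-1. MiR-503-5p, encoded next to miR-424 on the X chromosome, had 199 CPM in PANC-1, 619.8 and 516 CPM in A-549, 1200.1 and 1119 CPM in ES-2 and 455 and 486 CPM in MV3, 2.29 times below the lowest other library. MiR-455-3p, in an intron of COL27A1, had 118 CPM in PANC-1, 329 and 277 CPM in A-549, 419.7 and 418 CPM in ES-2 and 308 and 310.5 CPM in MV3. MiR-320a had 1151 CPM in PANC-1, 2415 and 3278 CPM in A-549, 3188 and 3271 CPM in ES-2 and 4676 and 4668 CPM in MV3, and miR-320b, which differs from it by few bases so that reads can be shared between them, had 30.8 CPM in PANC-1, 140.1 and 160.1 CPM in A-549, 88.99 and 92.4 CPM in ES-2 and 128 and 129 CPM in MV3. MiR-218-5p, from introns of SLIT2 and SLIT3, had 110.4 CPM in PANC-1, 178 and 183 CPM in A-549, 513 and 547 CPM in ES-2 and 1912 and 1771 CPM in MV3 and was thus closest to A-549.

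Other miRNAs separated PANC-1 from only some lines. MiR-224-5p and miR-452-5p, both from GABRE on the X chromosome, summed with their opposite arms to 1.33 CPM in PANC-1, 6374 and 6803 CPM in A-549, 1152 and 1314 CPM in ES-2 and 3.41 and 7.10 CPM in MV3. PANC-1 and MV3 were thus nearly devoid of this cluster, and for miR-224-5p the difference against A-549 was -11.39, the lowest of all. No p is given, since miR-224-5p passed the filter only through A-549 and ES-2 and had to be lower than there. MiR-199a-5p and miR-199a-3p, typical of mesenchymal cells, had 0.308 and 14.4 CPM in PANC-1 and were also low in A-549, whereas ES-2 had 4039 and 4071 CPM and MV3 8771 and 8078 CPM of miR-199a-3p. Its mature sequence is identical to that of miR-199b-3p, so reads of these cannot be separated. MiR-143-3p had 29.8 CPM in PANC-1, 1525 and 1553 CPM in A-549, 7.82 and 21.4 CPM in ES-2 and 1216 and 1197 CPM in MV3 and miR-145-5p 0 reads in PANC-1, so that here PANC-1 was close to ES-2 and not to A-549. MiR-142-3p, a blood cell miRNA, was at 0.103 CPM in PANC-1 and was read at 326 and 286 CPM in ES-2. MiR-155-5p, an inflammation-linked miRNA, had 864 CPM in PANC-1, 23.2 and 22.8 CPM in A-549, 7812 and 8043 CPM in ES-2 and 2832 and 3789 CPM in MV3, so that PANC-1 was above A-549 and below the other lines.

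Of the 10 most abundant miRNAs of PANC-1, which held 69.3% of its reads, let-7b-5p, let-7f-5p and miR-10a-5p were higher against all 3 lines on CPM, and none was lower against all 3. With TMM factors the log2 differences of let-7b-5p and let-7f-5p against A-549 were only 0.12 and 0.32. The others, miR-21-5p, let-7a-5p, miR-30a-5p, miR-100-5p, miR-92a-3p, miR-24-3p and miR-23a-3p, lay within the range of the other libraries. MiR-24-3p had 15689 CPM in PANC-1, 6249.7 and 5629.7 CPM in A-549, 4052 and 4134 CPM in ES-2 and 19919.9 and 21782 CPM in MV3, and miR-23a-3p had 15116 CPM in PANC-1, 10295 and 9614 CPM in A-549, 10462 and 10790.0 CPM in ES-2 and 31785 and 29182 CPM in MV3, so for both MV3 was higher and A-549 and ES-2 were lower, although with TMM factors miR-23a-3p turned to -0.34 against A-549. MiR-30a-5p had 41376 CPM in PANC-1, 30176 and 28345 CPM in A-549, 48886 and 47275 CPM in ES-2 and 14722 and 14463 CPM in MV3, between ES-2 and the other lines, and its difference against A-549 changed sign with TMM factors, from 0.50 to -0.44.

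The lists of miRNA families and tissues were described by their members, next to the shares of all 453 (41.5% higher and 15.9% lower than A-549, 40.8% and 25.6% for ES-2, 31.6% and 30.5% for MV3). Of 11 miRNAs often studied in pancreatic cancer, 5 were higher and 3 lower than in A-549, 5 and 5 in the case of ES-2, and 4 and 5 in that of MV3. Only miR-196a-5p and miR-10a-5p of these were higher against all 3, and miR-21-5p, miR-155-5p, miR-221-3p and miR-222-3p were not. The median differences of these 11 were 0.38, -0.09 and -0.61 against A-549, ES-2 and MV3 on CPM and -0.56, -0.54 and -0.65 with TMM factors, so that the sign against A-549 turned. Of 5 epithelial miRNAs, 3 were lower than in A-549 and 1 and 2 higher than in ES-2 and MV3, the second of the latter being miR-203a-3p. Of 7 mesenchymal miRNAs, 2 were higher and 3 lower than in A-549, 3 were lower than in ES-2, and 1 was higher and 6 lower than in MV3. The neuronal list had 6 members compared, of which 3 were higher and 1 lower against all 3. The miR-29 family was higher than in A-549 for 2 of 3 members, which with TMM turned to slightly negative values (-0.07 for miR-29a-3p and -0.11 for miR-29b-3p), and lower than in ES-2 and in MV3 for 3 of 3. MiR-192-5p, miR-194-5p and miR-215-5p were lower than in A-549 in 3 of 3 cases, with a median difference of -4.39. The miR-30 family had 5, 2 and 3 of 5 members higher than in A-549, ES-2 and MV3, and on TMM its median was -0.38 against A-549 and -0.19 against ES-2. Of the miR-183 cluster, miR-182-5p and miR-183-5p were higher against all 3 lines and miR-96-5p against none, although miR-182-5p fell below A-549 with TMM (-0.36). The miR-181 family had 0 members higher and 3, 1 and 2 of 4 lower than in A-549, ES-2 and MV3, with miR-181b-5p lower against all 3. Of the 5 members of the miR-99, miR-100 and miR-125 clusters 3, 3 and 5 were lower, and of the 5 of the miR-23, miR-27 and miR-24 clusters 3, 4 and 0 were higher. Of 7 members of the miR-15 and miR-16 family 3, 1 and 0 were higher and 2, 3 and 2 lower. The 9 members of the miR-17-92 and miR-106b-25 clusters were lower in 1, 7 and 8 cases. Of 4 miRNAs listed from those the study discussed, miR-340-5p was higher against all 3 lines with 721 CPM in PANC-1, 243 and 209.6 CPM in A-549, 328 and 347 CPM in ES-2 and 276 and 349.8 CPM in MV3. The study also discussed the let-7 and miR-30 families, which are described above. The 2 blood cell miRNAs compared were lower than in ES-2, and no member of the melanocyte and X-linked testis list was abundant enough to be compared.

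**Figure D4:**
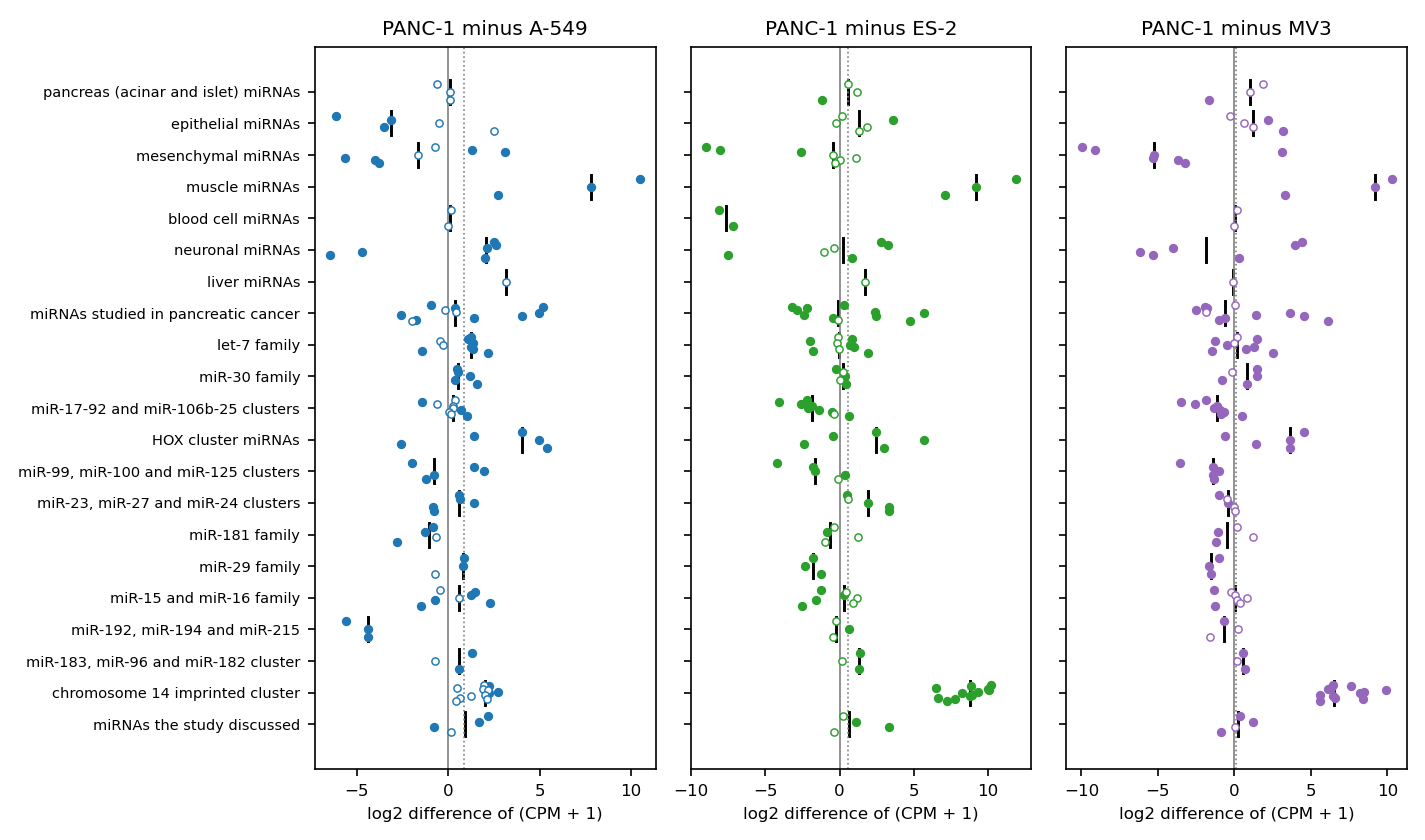
Log2 difference of (CPM + 1) between PANC-1 and each other line (x axis) for the compared members of each list (y axis), 1 point a miRNA, filled where the adjusted p of limma was under 0.05 and open otherwise. Black bars are list medians and dotted lines the median of all 453 miRNAs (0.84, 0.55 and 0.08), and the chromosome 14 list lies far to the right against ES-2 and MV3 (medians 8.81 and 6.54) but not against A-549 (1.99).

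MiRNAs that share a seed were also summed. Of 59 seed families with at least 1000 CPM in a line, 15 were 2-fold or more above all 6 other libraries in PANC-1 (25.4%) and 1 was below (1.69%). Of the 15, 12 reached 1000 CPM in PANC-1 alone and thus had to be higher there, and 3 were among the 44 families that reached it in another line. These 3 were the families of miR-10a-5p (ACCCUGU), miR-191-5p (AACGGAA) and miR-493-5p (UGUACAU). The higher families described next, those of miR-1-3p, miR-196a-5p, miR-146a-5p and miR-9-5p, averaged 1000 CPM or more in PANC-1 alone and had to be higher there. The families lack 41 compared miRNAs with no matched sequence, such as miR-425-5p and miR-30d-5p, so these counts and sums are incomplete. The family of miR-1-3p and miR-206 (seed GGAAUGU) had 6273 CPM in PANC-1 and at most 10.2 CPM elsewhere, all from miR-1-3p in PANC-1. The family of miR-196a-5p and miR-196b-5p (AGGUAGU) had 12011 CPM against at most 1102 CPM, of which miR-196a-5p made up 11978 CPM in PANC-1. The miR-146a-5p and miR-146b-5p family (GAGAACU) was higher as well, by 0.95 over the nearest library, just short of the 2-fold rule, and the miR-9-5p family (CUUUGGU) lay 1.94 above. The family below the others was that of miR-503-5p (AGCAGCG), with 199 CPM against 455 CPM or more. Some large families with several members lay close to the nearest library. The let-7 seed was 0.01 above the nearest library on the log2 scale, and that of miR-26a-5p and miR-26b-5p (UCAAGUA) had 18178 CPM in PANC-1 and 18181 CPM in MV3 replicate 2.

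The ratio of both arms of a hairpin depends little on how libraries are scaled, as both are read in the same library. Of 73 hairpin names with at least 100 CPM in each line, 7 were shifted 2-fold or more toward the 5p arm beyond all 6 other libraries (9.59%) and 3 toward the 3p arm (4.11%). For miR-10b, miR-17 and miR-20a the 3p arm was rarer in PANC-1 than in every other library. MiR-10b had 1853 CPM of its 5p and 1.03 CPM of its 3p arm, whereas the other libraries had between 2.62 and 44.5 CPM of the latter. MiR-17-3p and miR-20a-3p had 0 reads in PANC-1, against 1.94 to 27.1 and 1.87 to 29.8 CPM in the other libraries. With no 3p reads the size of such a ratio depends on the pseudocount. MiR-196a-3p was listed at 0 in all 7 libraries and miR-146a-3p had at most 0.852 CPM in any, so that their ratios repeat the level of the 5p arm and say nothing of strand choice. Let-7e and miR-30d completed the 7. Toward the 3p arm, miR-1307 had a log2 ratio of -6.81 in PANC-1 and -4.91 to -2.98 elsewhere, with 456 CPM of miR-1307-3p against 108 to 288 CPM. For miR-106b, whose arms were about equal in the other libraries (-0.25 to 0.14), PANC-1 had -1.45, with 313 CPM of the 5p and 853 CPM of the 3p arm. MiR-22 was the third. The 3p arms of miR-10a and miR-425 were instead higher in PANC-1 than in every other library, but so were their 5p arms. How general low 3p arms were was not tested. PANC-1 also had few miRNAs with 1 to 3 reads, 50 against 159 to 211. Whether this has the same source as the low 3p arms was not tested.

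**Figure D5:**
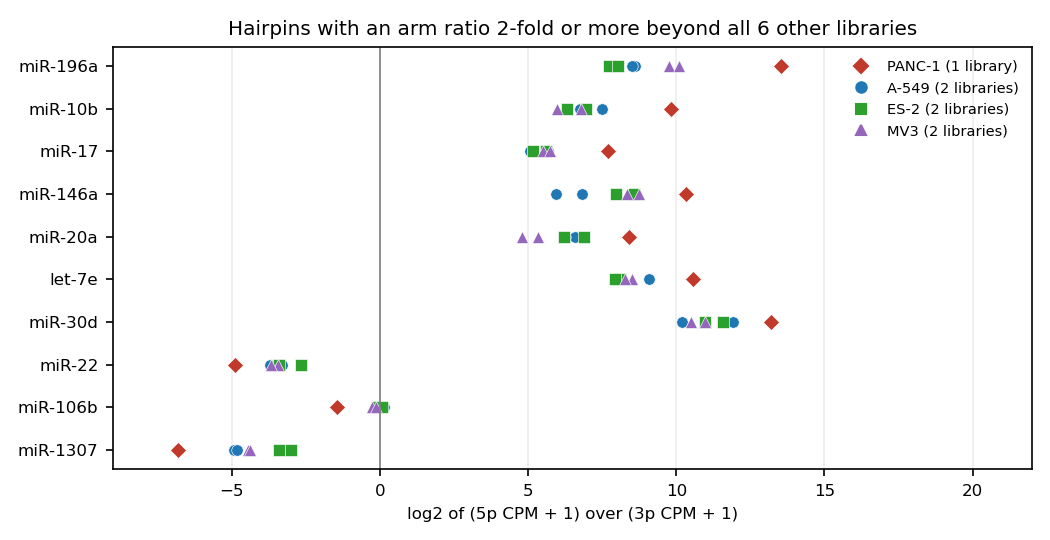
Log2 ratio of the 5p to the 3p arm (CPM + 1 each, x axis) in every library for the 10 hairpins whose ratio in PANC-1 was 2-fold or more beyond all other libraries (y axis). Each point is 1 library, and the PANC-1 diamond lies to the right for 7 hairpins and to the left for miR-22, miR-106b and miR-1307.

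Over all compared miRNAs, PANC-1 was nearest to A-549. The median absolute log2 difference between line means was 1.41 for PANC-1 and A-549, 1.53 for MV3 and 1.84 for ES-2, while the replicates of a line differed by 0.24 to 0.27. More than 4-fold different were 151, 188 and 210 miRNAs. Spearman's rho across miRNAs, given as a description since miRNAs are not independent, was 0.80 for A-549, 0.57 for MV3 and 0.49 for ES-2, and was 0.85 between ES-2 and MV3. With TMM factors the order of the distances was the same (1.18, 1.48 and 1.81). The members just inside the 4-fold limit were miR-411-3p and miR-433-5p, with distances of 2.01 and 2.02, and just outside it lay miR-98-3p and miR-501-5p with 1.98 and 1.995. Below the other libraries, miR-2682-5p was just inside with -2.06, and miR-99a-5p just outside with -1.96.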

How the data were processed

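Small RNA of 4 parental cell lines was sequenced after NEXTflex preparation (1 library of PANC-1, 2 each of A-549, ES-2 and MV3), and samples were grouped by the cell line named in their labels. The submitters' processing notes name cutadapt 1.14, Bowtie2 2.3.2, SAMtools 1.5, featureCounts 1.5.3, edgeR 3.30.3 and the hg38 build, without their order. The PANC-1 table as deposited by the authors holds CPM values, that is reads per 1000000 reads assigned to the listed miRNAs. The tables of the other lines, as deposited, hold a scaled signal, since the authors scaled the 2 libraries of a table to each other, one table at a time, so that no scale was common to all tables. Every value was a whole multiple of what 1 read was worth in its library (100% of values, tolerance 0.01 reads), so the reads were recovered from these multiples, genomic copies of a mature miRNA were added up and CPM were recomputed from library totals of 1173902 to 9746838 reads. A filter kept miRNAs with at least 10 CPM on average in any of the 4 lines.

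The log2(CPM + 1) values were fitted with limma 3.58.1 (R 4.3.3; line as factor, trended empirical Bayes), and PANC-1 was contrasted with each line, with Benjamini-Hochberg adjustment over 453 miRNAs. All error comes from the replicate pairs of the other lines, and 1 residual spread is shared by all lines. Fold changes on this scale understate changes of low miRNAs. The design had assumed CPM in all tables. Alternatives were TMM factors, median-of-ratios size factors, pseudocounts of 0.5 and 5, other filters, edgeR 4.0.16 and DESeq2 1.42.0 on the recovered reads, all 11 libraries, the replicate number as a block, and each replicate left out. Scripts were tested on simulated data. Python 3.11.15 was used for descriptions, genomic positions came from RefSeq (GRCh38.p14), and neighbouring hairpins within 10000 bases on 1 strand made up a cluster. Arm ratios and seed families used a distance of 2-fold.

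Named were the 10 most abundant miRNAs of PANC-1, the 12 with the widest distance above the other libraries, the 12 and 6 with the widest distance below them, the 3 highest and 3 lowest differences per line (each with at least 100 CPM where high), their other arms, the 6 most shifted hairpins, all markers, and list members that passed in 1 direction against all 3 lines. The members, lists and this rule were chosen with earlier results of these data known. Outside the rule, and after their values had been seen, the following were named: miR-532-5p, miR-335-5p, miR-191-5p, miR-136-5p, miR-431-3p, miR-7-1-3p, miR-138-1-3p, both arms of miR-582, miR-1294, miR-628-5p, miR-2682-5p, the families of miR-146a and miR-26a, the miRNAs next to the 4-fold limit, and the 6 miRNAs read only in PANC-1.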

Additional observations from a re-analysis of the deposited data

How the results depend on the processing

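Over the alternatives, the counts of miRNAs that differed from A-549, ES-2 and MV3 (260, 301 and 281) stayed within 1.5 times, except that 171 differed from A-549 (70 higher, 101 lower) with the replicate block and TMM factors together. The replicate block alone gave 237, 280 and 261 calls, and deviations of same-numbered libraries were unrelated (correlations of -0.06, 0.03 and 0.01), so the numbers were not taken as pairs. PANC-1 had no partner to leave out. Leaving out each of the other libraries gave 205 to 238, 258 to 298 and 238 to 264 calls, 47 to 52 miRNAs 4-fold above and 8 to 11 below all others, 10 to 12 arm ratios, 16 to 17 seed families, and distances of 1.38 to 1.46 from A-549, 1.83 to 1.89 from ES-2 and 1.46 to 1.59 from MV3. A line left with 1 library was assumed to vary like the others. The number 4-fold above all others (47) was 18 with TMM factors and the filter applied after them, 30 with a filter on the mean of the 4 lines, 107 at 2-fold and 17 at 8-fold. The number below (9) was 2 with a pseudocount of 5, 29 at 2-fold and 3 at 8-fold. The distance from A-549 was 1.18 with TMM and 1.26 with median-of-ratios factors, and that from ES-2 1.79 with TMM and the filter applied after it (1.81 over the same 453 miRNAs). Arm ratios beyond the others (10) numbered 2 at 4-fold and 2 among hairpins with at least 1000 CPM. With TMM factors the sign turned for miR-182-5p (-0.36), miR-221-3p (-0.56), miR-23a-3p (-0.34), miR-30a-3p (-0.10), miR-30a-5p (-0.44) and miR-92a-3p (-0.26) against A-549, and for miR-21-3p (-0.10), miR-21-5p (-0.17) and miR-30c-5p (-0.10) against ES-2. Of the other values for named miRNAs under TMM, 236 kept their direction and side of the threshold, 24 lost and 6 gained a call, and 4 without a test moved. In 2 settings chosen after seeing the data, the values as deposited gave 258, 302 and 281 calls, and edgeR without scaling factors gave 308, 324 and 294. For the single PANC-1 library, depth limits only rare miRNAs (3 reads are 0.308 CPM), whereas the spread between PANC-1 cultures is unknown.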
